A study of Danio rerio with 6 samples.

Results

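The cytosolic ribosomal proteins are the protein building blocks of the ribosome that works outside mitochondria, and their genes were compared here between ventricles of old and young zebrafish (*Danio rerio*). Members were taken by gene symbol, as all *rpl*, *rps* and *rplp* genes other than the ribosomal S6 kinases (*rps6k*) and the *rps19* binding protein genes. This gave 83 of the 32520 genes in the count table, 47 of the large and 36 of the small subunit. At least 1 read was counted for 82 of them. The exception was *rpl26* (ENSDARG00000102317), a protein of the large subunit near the tunnel exit, with 0 counts in all 6 libraries, so no fold change is given for it. Of the 83 symbols, 71 stand in capitals in the name table, as human gene names do, and all are written here in lower case. Symbols are shared by 8 members, among them a pair of *rpl5* and a pair of *rps26* genes, and these are told apart by their Ensembl identifiers.

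Poly(A) RNA of the heart ventricle was sequenced from 3 old fish (4 years) and 3 young fish (7 months), numbered 1, 3 and 5 in the old and 1, 2 and 5 in the young group. The fish were wild types bred from the strains AB and TU, without a transgene or treatment in either group, and the study chose the 3 RNA samples per group by their RNA integrity from a larger set. The integrity values, the sex and the day of dissection of each fish were not used here. Between 17742389 and 22547518 reads were assigned to genes per library.

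A ribosome joins a small subunit, which binds the mRNA and decodes it, to a large subunit, which forms the peptide bonds and releases the chain through an exit tunnel. RNA polymerases I and III make the ribosomal RNA. Each subunit holds ribosomal RNA and a set of proteins that assemble in near equal numbers. The mRNAs of these proteins start with a short pyrimidine tract, the TOP motif, through which mTOR signalling controls their translation, and in cardiac muscle more ribosomes are made when the muscle grows. A level of mRNA is therefore not a level of ribosomes or of protein synthesis.

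Ribosomal protein genes took a larger share of all counts in old ventricles. The share was 8.37%, 7.95% and 8.03% in old libraries 1, 3 and 5, and 6.86%, 7.02% and 6.23% in young libraries 1, 2 and 5. Every old library was above every young library. The mean was 8.12% ± 0.22 in old and 6.70% ± 0.42 in young ventricles (SD, n = 3 each), a ratio of 1.21. Both subunits differed by nearly the same ratio. Large subunit genes held 4.72% ± 0.126 of the counts in old and 3.91% ± 0.249 in young ventricles (ratio 1.21), and small subunit genes held 3.40% ± 0.0937 and 2.79% ± 0.172 (ratio 1.22). Within a library, the large subunit had between 1.39 and 1.42 times the counts of the small subunit.

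A share depends on what else is in the library, and counts of the mitochondrially encoded genes moved the other way. Those genes took 12.9% ± 1.39 of the counts in old and 16.3% ± 1.55 in young ventricles, with no overlap. When they were left out of the total, the ribosomal protein share was 9.31% ± 0.103 against 8.0% ± 0.363, a ratio of 1.16, and the groups still did not overlap. Haemoglobin genes held 0.0302% of the counts in old and 0.106% in young ventricles, too little to move the share. In whole ventricles, more cells of a type that is rich in these mRNAs and more of the mRNA per cell cannot be told apart.

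After scaling by the trimmed mean of M values (TMM), which sets each library by the bulk of its genes, the difference was smaller and the groups overlapped. Summed over the 82 genes, the scaled level was 78479, 75554 and 74763 CPM (counts relative to the scaled library total) in old libraries 1, 3 and 5. It was 67658, 75304 and 70899 CPM in young libraries 1, 2 and 5. Young library 2 was above old library 5, while young library 1 was the lowest of the 6. The ratio of means was 1.07 for the large subunit (44352 ± 1116 against 41604 ± 2087 CPM) and 1.08 for the small subunit (31913 ± 842 against 29683 ± 1755 CPM).

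**Figure D1:**
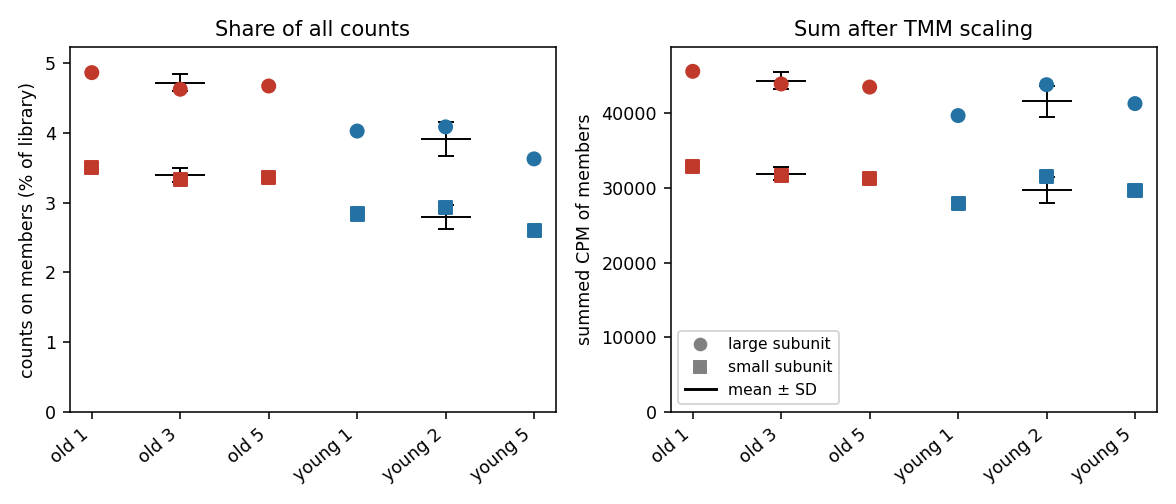
Left, share of all counts on large and small subunit ribosomal protein genes in each library (percent of library). Right, the same genes as summed CPM after TMM scaling; red is old and blue is young, and lines are means ± SD (n = 3). The shares of the old libraries all lie above those of the young libraries, whereas the scaled sums of young library 2 exceed those of old library 5.

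Gene by gene, small differences toward higher levels in old ventricles prevailed. The fitted log2 fold change of old over young was above 0 for 71 and below 0 for 11 of the 82 genes. The median was 0.11 (1.08-fold), beside 0.02 over all 24835 genes with a read. This excess over all genes was nearly gone without young library 1 (0.09 beside 0.08, with 60 of 82 genes above 0) and small without young library 5 (0.11 beside 0.09). The large subunit had a median of 0.11 with 40 genes above and 6 below 0, and the small subunit had 0.13 with 31 above and 5 below. The changes were alike in size, and 54 of the 82 genes were within 0.1 of the common median. The 1003 other genes with a mean of at least 100 CPM had a median of -0.16, which was 0.02 with scaling by library size alone, and 279 of them were above 0 with TMM. When libraries were scaled by their size alone, without TMM, all 82 genes were higher in old ventricles with a median of 0.29, but the median over all genes rose as well, from 0.02 to 0.20.

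Few of these differences passed a test of the single gene. By the quasi-likelihood test of edgeR with Benjamini-Hochberg adjustment at 0.05, 1 ribosomal protein gene was up-regulated, *rpl22l1*, against 0.519% of all genes. None was down-regulated, against 0.338% of all genes, and the count was also 0 at an unadjusted p under 0.05 (6.5% of all genes), by DESeq2 (1.96% of all genes) and by limma-voom. At an unadjusted p under 0.05, 5 genes were higher in old ventricles, among them *rpl22l1*, *rpl9*, *rplp2* and *rps27l*, a share of 6.10% where all genes gave 8.64%. All genes include many with few counts. Among the 1003 other genes with a mean of at least 100 CPM, 35 were higher and 209 lower at that p. DESeq2 called 2 ribosomal protein genes higher, *rpl22l1* and *rps27l*, where 2.99% of all genes were called. limma-voom called *rpl22l1* alone, where it called 54 of all 24835 genes higher and 40 lower.

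Separation of the libraries was more frequent than these calls. For 30 of the 82 genes (36.6%), 16 of the large and 14 of the small subunit, every old library was above every young library, against 10.4% of all genes. Only *rps27.1* had every old library below every young library, against 9.66% of all genes, and 51 genes overlapped. Among the 1003 other genes with a mean of at least 100 CPM, 43 (4.29%) separated upward and 244 downward. The count of 30 depended on young library 2. Without it 52 genes (63.4%) separated in this direction, beside 13.8% of all genes, and leaving out any other library gave between 31 and 39 genes (37.8% to 47.6%), beside 14.5% to 17.3% of all genes.

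**Figure D2:**
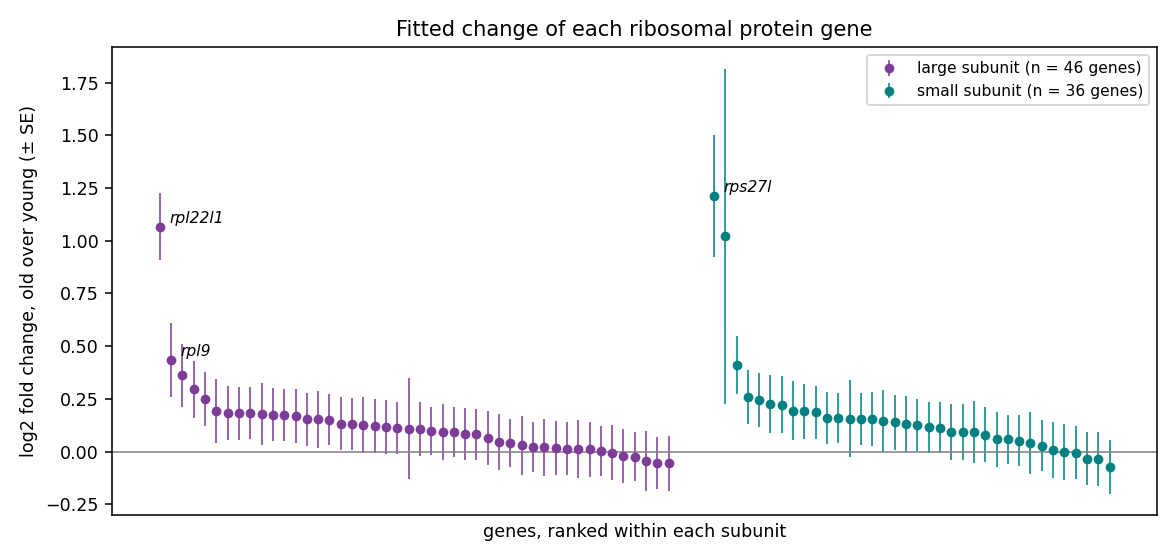
Fitted log2 fold change (old over young, ± SE, 3 libraries per group) of each of the 46 large and 36 small subunit genes with a read, ranked within the subunit. Most genes lie between 0 and 0.25, and 3 genes lie above 1, among them *rpl22l1* (1.07) and *rps27l* (1.21); the third of these has the widest error and its groups overlap.

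The libraries differed in how the genes sat together. In old library 1, 73 of the 82 genes were above their own mean over the 6 libraries, and in old libraries 3 and 5 this held for 59 and 57 genes. In young library 1 it held for 4 genes and in young library 5 for 15, but in young library 2 for 52. The genes of both subunits thus moved together from library to library. The median SD of log2 CPM between libraries of a group was 0.0666 in old and 0.0851 in young ventricles, beside a median change of 0.11.

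**Figure D3:**
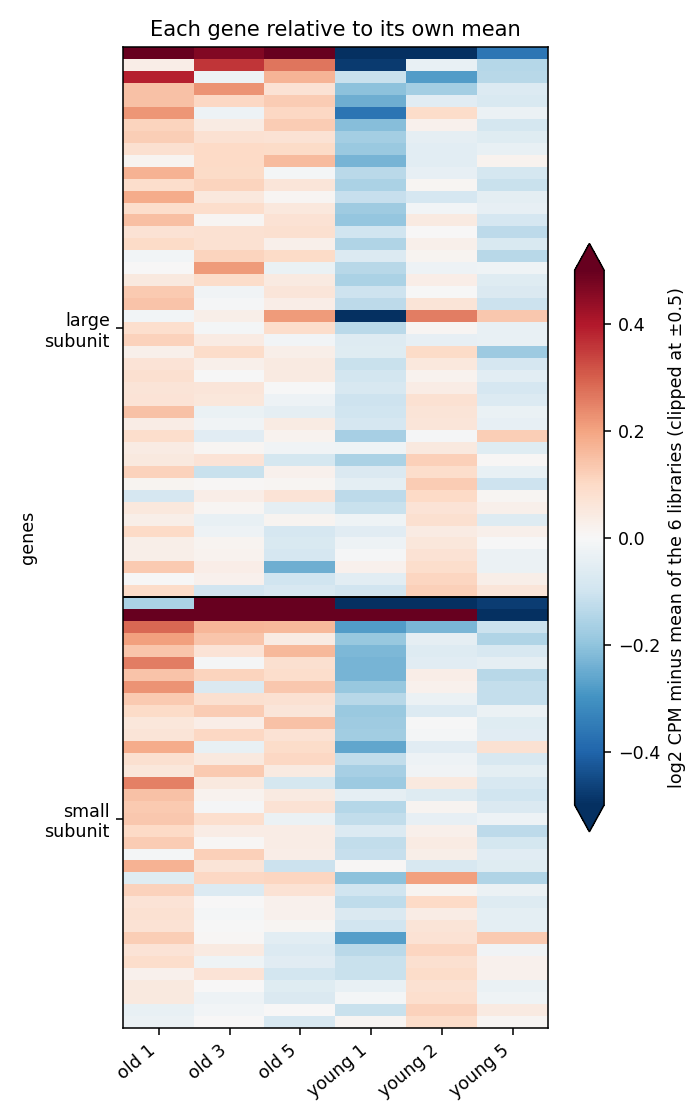
Level of each ribosomal protein gene (row) in each library (column), as log2 CPM minus the gene's mean over the 6 libraries, with colours clipped at 0.5 in both directions. Genes are in the order of their fold change within the large (top) and the small subunit. Young library 1 is below the mean in nearly all rows, and young library 2 is above it for 52 of the 82 genes.

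In the large subunit, *rpl22l1* (ENSDARG00000010244) stood apart. It encodes a paralog of Rpl22, an RNA-binding protein of the large subunit, and in mice Rpl22 represses the expression of Rpl22l1. *rpl22l1* had 217, 207 and 231 CPM in old libraries 1, 3 and 5 and 91.7, 104 and 117 CPM in young libraries 1, 2 and 5. All old values were above all young values, and the groups were far apart relative to their spread (218 ± 12 against 104 ± 12.7 CPM). The gene was up-regulated 2.09-fold in old ventricles (log2 fold change 1.07, SE 0.16, adjusted p = 0.0230 with edgeR, 2.65e-07 with DESeq2). With 2 young libraries the edgeR call was lost in 2 of 3 cases. The adjusted p was 0.0968 without young library 1 and 0.132 without young library 2, at log2 fold changes of 0.99 and 1.06. Calls over all genes, in either direction, fell in the same fits from 213 to 57 and 19.

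*rpl22* itself had 514, 508 and 477 CPM in old and 495, 524 and 503 CPM in young libraries. The values overlapped and the log2 fold change was -0.02 (SE 0.13, adjusted p = 0.959). Of the counts on both genes, *rpl22l1* therefore held 29.7%, 29.0% and 32.6% in old and 15.6%, 16.5% and 18.9% in young libraries. The mean share was 30.4% ± 1.93 against 17.0% ± 1.68, a difference of 13.4 percentage points (exact two-sided permutation test, p = 0.1, the smallest that 3 against 3 libraries can give).

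The acidic stalk of the large subunit recruits the translation factors that hydrolyse GTP, and consists of *rplp0* and pairs of the small P proteins. All 4 stalk genes were above 0, with a median log2 fold change of 0.24, and none passed the threshold. Of these 4 genes, 3 separated upward, beside 36.6% of all ribosomal protein genes and 10.4% of all genes. *rplp2* had 925, 695 and 795 CPM in old libraries 1, 3 and 5 and 654, 582 and 641 CPM in young libraries 1, 2 and 5, without overlap (log2 fold change 0.36, SE 0.15, adjusted p = 0.289). Its copy *rplp2l* had 370, 391 and 352 CPM in old and 290, 298 and 319 CPM in young libraries, again without overlap (0.30, SE 0.14, adjusted p = 0.351). Both P2 genes thus had higher values in all old libraries, and the share of *rplp2l* in their sum was 31.8% in old and 32.6% in young ventricles. *rplp1* overlapped between the groups (0.19, adjusted p = 0.597), and *rplp0*, among the genes with most counts, did not (0.10, adjusted p = 0.671).

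The 5S particle is assembled from 5S ribosomal RNA with Rpl5 and Rpl11 before it joins the large subunit, and in human cells the free particle binds the p53 regulator MDM2. Its 3 genes had nearly the same log2 fold change, 0.18 for *rpl11* and 0.18 for each *rpl5* gene. *rpl11* had 824, 797 and 796 CPM in old and 672, 733 and 725 CPM in young libraries. All 3 separated upward, beside 36.6% of all ribosomal protein genes and 10.4% of all genes. None passed the threshold with edgeR (SE 0.12 to 0.13, adjusted p from 0.543 to 0.553). The *rpl5* gene ENSDARG00000015862 held 52.1% of the counts of the pair in old and 52.0% in young ventricles.

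Around the exit of the peptide tunnel, where nascent chains meet targeting and folding factors, 5 genes with reads had log2 fold changes from 0.01 (*rpl39*) to 0.15 (*rpl17*). Of these 5 genes, 3 separated upward, beside 36.6% of all ribosomal protein genes and 10.4% of all genes. *rpl9* (ENSDARG00000037350), a large subunit protein, had 149, 186 and 175 CPM in old and 105, 142 and 132 CPM in young libraries. Its groups did not overlap, though the lowest old value was close to the highest young value, and the log2 fold change was 0.43 (SE 0.18, adjusted p = 0.284). Among the large subunit genes with most counts, *rpl3* (-0.02) and *rpl4* (0.04) overlapped between the groups. So did *rpl10* and *rpl12*, which had the lowest log2 fold changes of the large subunit (both -0.06, adjusted p = 0.857 and 0.849). *rpl7l1*, a paralog of *rpl7*, had between 15.4 and 28.2 CPM in all libraries and overlapped too (0.11, SE 0.24).

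In the small subunit no gene passed the threshold with edgeR or limma-voom. At an unadjusted p under 0.05, 2 of its 36 genes were higher, where 8.64% of all genes were. DESeq2 called 1 of the 36 higher, where it called 2.99% of all genes. The gene called by DESeq2 was *rps27l* (ENSDARG00000100513), a paralog of *rps27* that is induced by p53 in human cells. It had 16.2, 31.7 and 37.3 CPM in old libraries 1, 3 and 5, from 358, 592 and 903 counts. In young libraries 1, 2 and 5 it had 11.7, 12.1 and 13.0 CPM, from 234, 250 and 255 counts. The young values were close together, while the old values were spread over more than the distance between old library 1 and the young group. The log2 fold change was 1.21 (2.31-fold, SE 0.29), with an adjusted p of 0.0937 with edgeR and 0.00935 with DESeq2. Without old library 1 it was 1.49 (edgeR, adjusted p = 0.00654) and without old library 5 it was 0.96 (adjusted p = 0.167). Without each other library the adjusted p was between 0.172 and 0.308. Of all genes, 412 were called in either direction without old library 1, beside 213 with all libraries.

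The other *rps27* genes had fold changes near 0. *rps27.1* (ENSDARG00000023298) had 569, 581 and 549 CPM in old and 585, 619 and 585 CPM in young libraries, just below without overlap (-0.07, SE 0.13, adjusted p = 0.797), and *rps27.2* overlapped (-0.04, adjusted p = 0.910). *rps27.1* was above 0, at 0.10, when libraries were scaled by size alone. Of the counts on the 3 genes, *rps27l* held 1.15%, 2.18% and 2.59% in old and 0.846%, 0.777% and 0.881% in young libraries.

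Counts were compared within 9 families of copies or close paralogs with 19 genes, which gave 11 shares. With 3 against 3 libraries, a separated share has an exact permutation p of 0.1. By level, 10.4% of all genes separated upward and 9.66% downward. Of the 11 shares, 3 separated by group, among them those of *rpl22l1* and *rps27l*. The other 8 overlapped, among them *rps26* (ENSDARG00000037071, 47.2% in old and 45.5% in young ventricles, exact permutation p = 0.2). These shares are of reads and not per transcript length. Reads that matched more than 1 place were discarded in the counting, so a stretch that copies share is counted for neither, and the levels of near-identical copies are uncertain.

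**Figure D4:**
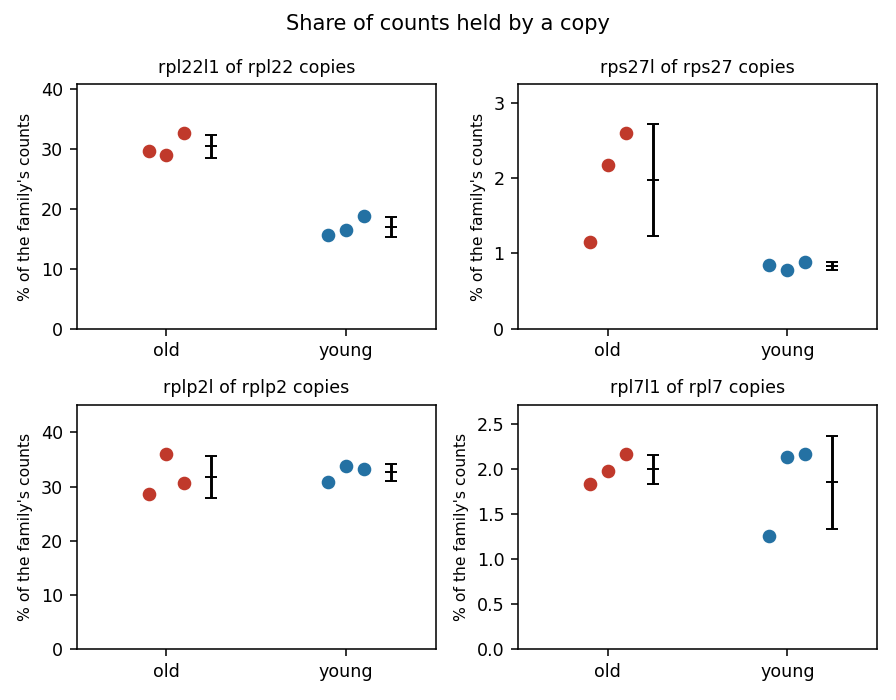
Share of a family's counts held by a copy or paralog in each library (percent), for 4 of the 9 families; red is old, blue is young, and bars are mean ± SD (n = 3). *rpl22l1* and *rps27l* separate by group, and *rplp2l* and *rpl7l1* overlap.

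Other small subunit genes are grouped by their place on the mRNA path. Both genes at the mRNA entry overlapped between groups, *rps2* at 0.03 and *rps3* at 0.11. At the mRNA exit all 5 genes were above 0 with a median of 0.19. Of all ribosomal protein genes 36.6% separated upward, and of these 5 genes 3 did. Among them *rps14*, which is lost in human 5q- syndrome, had 1089, 1040 and 971 CPM in old and 828, 915 and 849 CPM in young libraries (0.26, SE 0.13, adjusted p = 0.383). *rps3a*, with many counts, overlapped (0.06). Over 12 genes whose human counterparts are mutated in Diamond-Blackfan anaemia, a failure of red cell production, 10 were above 0, 6 separated, and the median was 0.15, close to that of all ribosomal protein genes.

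Neighbouring parts of the translation machinery did not all have the same direction. Genes of RNA polymerase I and ribosome biogenesis, which make and assemble the RNA core, had a median log2 fold change of 0.21, with 74 of 90 above 0 and 17 (18.9%) separated upward, against 10.4% of all genes. None passed the threshold with edgeR or limma-voom, while 8 were higher and 3 lower at an unadjusted p under 0.05, against 8.64% and 6.5% of all genes. DESeq2 called 1 in each direction (2.99% and 1.96% of all genes). The 20 cytosolic tRNA synthetases, which charge tRNAs, had a median of 0.17 with 15 above 0, 5 separated upward and no call by edgeR, DESeq2 or limma-voom (1 higher at an unadjusted p under 0.05). The 4 ribosome proteins with other symbols, among them *fau*, *faub* and *rack1*, overlapped between groups and had a median of 0.00.

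Translation factors and other mRNAs with a TOP motif had a median of -0.08, with 20 of 31 below 0. None was called by edgeR, DESeq2 or limma-voom. At an unadjusted p under 0.05, 1 was higher and 3 lower (8.64% and 6.5% of all genes). Of the 31 genes 2 separated upward and 5 downward, against 10.4% and 9.66% of all genes. Their median was 0.12 with scaling by library size alone, which turned its sign. The 35 genes of mTOR signalling and translation control had a median of -0.07, or 0.12 with scaling by library size alone. DESeq2 called 2 of these genes higher and 1 lower (2.99% and 1.96% of all genes), and limma-voom none. By edgeR 1 was up-regulated in old ventricles (0.519% of all genes), *mych*, a Myc family transcription factor of fish. It had 62.4, 49.3 and 85.0 CPM in old and 27.3, 27.4 and 27.6 CPM in young libraries, without overlap (log2 fold change 1.26, SE 0.22, adjusted p = 0.0398). The call was lost without any 1 of the young libraries 1, 2 and 5 (adjusted p = 0.131, 0.186 and 0.106) and without old library 5 (0.0506). Without those young libraries the calls over all genes fell from 213 to 57, 19 and 96, while without old library 5 they were 263.

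Mitochondrial ribosomal proteins, which are made by the cytosolic ribosome for the ribosome inside mitochondria, had a median of -0.03, with 32 of 75 above 0 and 3 (4.0%) separated upward. None was called by edgeR, DESeq2 or limma-voom (1 higher at an unadjusted p under 0.05). Nuclear-encoded subunits of the respiratory chain had a median of -0.05 with 65 of 101 below 0, and none was called by edgeR or limma-voom. DESeq2 called 1 in each direction (2.99% and 1.96% of all genes). At an unadjusted p under 0.05, 2 were higher and 3 lower (8.64% and 6.5% of all genes). Both medians were above 0 with scaling by library size alone, at 0.15 and 0.13. Proteasome subunits, which degrade proteins, had a median of 0.15, with 39 of 47 above 0 and 10 (21.3%) separated upward, against 10.4% of all genes. The 5 genes of the immunoproteasome, the form of immune cells, all separated upward, with log2 fold changes from 0.81 to 2.79. They include *psmb8* and *psmb12*, which are among the 10 subunits that separated. The proteasome subunits outside the immunoproteasome were not summarised apart. The share of all proteasome subunits in the counts was also higher in every old library (0.184% against 0.143%, ratio 1.29). DESeq2 called 6 of the 47 higher (2.99% of all genes), edgeR 2 (0.519% of all genes) and limma-voom none. The 2 genes called by edgeR were *psmb8* (log2 fold change 2.79, adjusted p = 0.0429) and *psmb12* (2.66, adjusted p = 0.0180), both of the immunoproteasome of immune cells. Both calls were lost without young library 1 (adjusted p = 0.141 and 0.0868) or young library 2 (0.218 and 0.128). That of *psmb12* was also lost without young library 5 (0.0587). Without young libraries 1, 2 and 5 the calls over all genes fell from 213 to 57, 19 and 96.

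**Figure D5:**
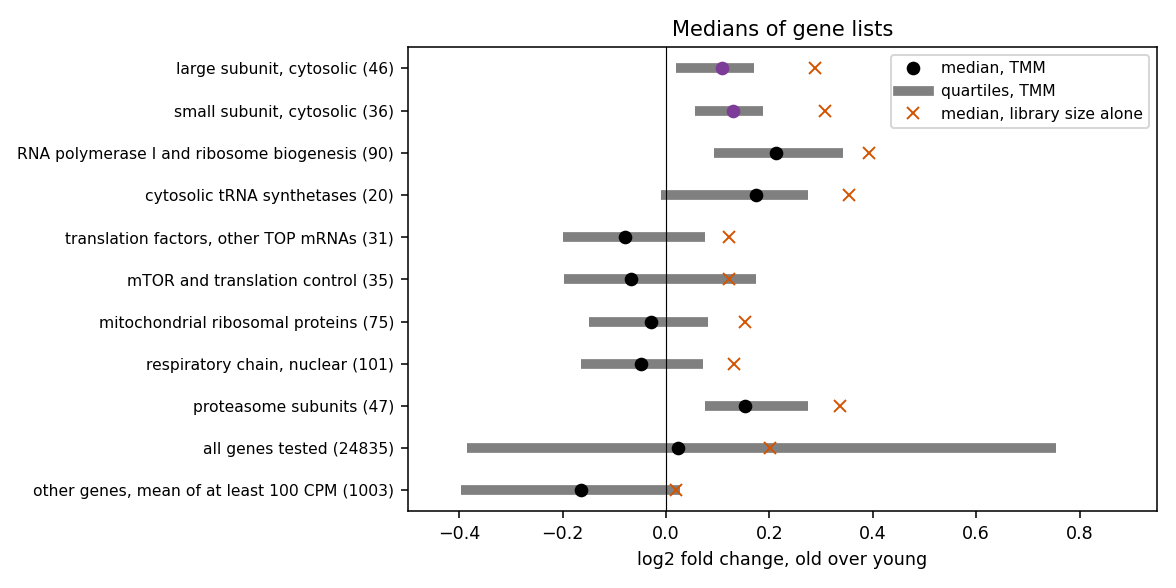
Median (dot) and quartiles (bar) of the log2 fold change of old over young for ribosomal protein genes of each subunit, other gene lists, all genes with a read and abundant other genes, with the number of genes in brackets. Crosses are medians with scaling by library size alone; purple dots are the cytosolic subunits, at 0.11 and 0.13 with TMM.

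Markers of blood cells differed between the groups beside these values. The summed level of 6 leukocyte markers was 470, 184 and 438 CPM in old libraries 1, 3 and 5. It was 167, 135 and 104 CPM in young libraries 1, 2 and 5. All 6 were above 0 and 4 separated upward, against 10.4% of all genes. DESeq2 called 4 higher (2.99% of all genes) and limma-voom none. By edgeR 1 was called higher (0.519% of all genes), *lcp1*, an actin bundling protein of leukocytes (log2 fold change 1.78, adjusted p = 0.0483). Without young library 1, 2 or 5 or old library 5 the call of *lcp1* was lost (adjusted p from 0.0677 to 0.214). Calls over all genes were 57, 19, 96 and 263 in these fits, beside 213 with all libraries. Old library 1 had both the highest leukocyte sum and the highest ribosomal protein sum (78479 CPM), while old library 3, with the lowest leukocyte sum of the old group, and old library 5 had ribosomal protein sums of 75554 and 74763 CPM. The 8 lymphocyte markers summed to 1.23 to 6.82 CPM in old and 0.766 to 1.95 CPM in young libraries, with *cd79b* and *pax5* at or under 3 counts in every library.

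The 5 erythrocyte markers were all lower in old ventricles, at 361 to 387 CPM in sum against 746 to 2151 CPM. By edgeR *hbaa1*, a haemoglobin chain, and *gata1a*, a transcription factor of red cells, were called lower (adjusted p = 0.0307 and 0.0434), where 0.338% of all genes were. DESeq2 called all 5 lower (1.96% of all genes) and limma-voom none. The call of *hbaa1* was lost without young library 5 (0.0596), and that of *gata1a* without any 1 of the young libraries or old library 5 (0.0595 to 0.141). Of all genes, 57, 19 and 96 were called without young libraries 1, 2 and 5, 263 without old library 5, and 213 with all libraries. Young library 1 had the highest erythrocyte sum and the lowest ribosomal protein sum of all libraries. It also had the highest leukocyte sum of the young group (167 CPM) and the lowest cardiomyocyte sum of all libraries (42717 CPM). Cardiomyocyte markers summed to 43505 to 54681 CPM in old and 42717 to 61678 CPM in young libraries, so the defining genes of the labelled tissue were present, and the groups overlapped. Markers of thrombocytes, endothelium, epicardium with fibroblasts, bulbus and atrium also overlapped in sum, those of oocytes summed to 0.248 to 0.664 CPM, and 4 liver markers reached 8.35 to 38.4 CPM in old and 4.41 to 6.28 CPM in young libraries, with *apoa2* at or under 3 counts in every library. The part of blood cells and of mitochondrial RNA in the ribosomal protein levels was not tested.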

How the data were processed

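Per the labels and the study's methods, total RNA of ventricles was extracted with Trizol, and directional poly(A) libraries were sequenced single-end. The authors aligned reads with STAR 2.5.4b to GRCz11 and counted them by strand with featureCounts 1.6.3, discarding multi-mapping reads, after conversion with bcl2fastq 2.20.0.422. The deposited values are raw counts per gene in 6 columns, 1 per library. Symbols came from a name table that held 29201 of the 32520 identifiers.

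All 24835 genes with a read were fitted together with edgeR 4.0.16 (TMM, quasi-likelihood test, groups old and young, Benjamini-Hochberg adjustment, threshold 0.05). DESeq2 1.42.0 and limma-voom (limma 3.58.1) under R 4.3.3 were alternatives, beside other scalings, filters of low counts, a replicate block and leaving out each library. Shares and sums were computed with pandas 2.3.3 under Python 3.11.15. Standard errors were derived from the quasi-likelihood test, as the absolute log2 fold change divided by the square root of its F statistic.

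Named genes were those past the threshold, the 3 with the smallest p per subunit and direction without overlap, the 3 with most counts per subunit, and copies or paralogs of at least 1 CPM, along with genes of the structural groups. Some genes that this rule names are not reported here. Levels were not compared per coding length, since lengths were not used here. The members and lists were chosen with earlier results of these data known.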

Additional observations from a re-analysis of the deposited data

How the results depend on the processing

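With 3 fish per group, no single gene that differed by about the common 1.08-fold passed the threshold. The size of the difference depended on the scaling. The medians of the large and small subunit genes were 0.29 and 0.31 with scaling by library size alone, beside 0.11 and 0.13 with TMM, and 73 in place of 30 genes separated by group (15.7% in place of 10.4% of all genes). Leaving out 1 library at a time gave 31 to 52 separated genes (13.8% to 17.3% of all genes). The same fits called 0 to 1 large subunit genes higher (0 without young library 1 or 2). They called 0 to 1 small subunit genes higher (1 without old library 1, *rps27l*). Over all genes, 213 were called in either direction with all libraries. Without young library 1 the number was 57, without young library 2 it was 19, and without old library 1 it was 412. DESeq2 called 1 small subunit gene higher (2.99% of all genes). Whether the shared replicate numbers 1 and 5 pair the fish cannot be told from these data. Deviations from the group means correlated at -0.046 and 0.028 between old and young libraries of the same number. Between old and young libraries of different numbers the correlations were -0.14 to 0.227, and so few values cannot decide it. With the replicate number as a block, 0 large subunit genes and 126 of all genes were called, and 77 of 82 ribosomal protein genes were above 0. There *rpl22l1* had a log2 fold change of 1.11 and an adjusted p of 0.161. This fit rests on numbers 1 and 5 alone, since old library 3 and young library 2 have no partner. Its lost call therefore comes with fewer libraries. *rpl22l1* was past the threshold in 14 of 17 alternatives and *rps27l* in 2 of 17. None of the directions of called genes turned. The cause of these shifts was not tested.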
